A study of Mus musculus with 4 samples.

Results

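The genes described here encode the proteasome, its activators and its assembly factors in C2C12 cells, a mouse myoblast line of C3H origin. They were chosen by symbol (Psma, Psmb, Psmc, Psmd, Psme, Psmf or Psmg followed by a number, without the 4 symbols marked as pseudogenes), which gave 50 of the 49585 genes counted. Of these, 31 are constitutive subunits, 5 are the inducible genes Psmb8, Psmb9, Psmb10, Psme1 and Psme2, and 48 had enough counts to be tested. RNA was sequenced from 2 C/EBPβ libraries, whose cells had been transduced with a retrovirus that overexpresses C/EBPβ, and from 2 empty vector libraries, whose cells carried the retroviral vector alone. All 4 libraries came from proliferating, undifferentiated cells. After transduction both kinds of cells went through 7 days of selection in G418 at 1200 μg/ml, the resistant cells were kept as a pool, and they grew for a further 48 h in medium with 10% serum. Whether replicates of 1 group came from separate transductions or cultures is not stated, so the p-values here reflect the spread between these libraries alone, and that spread may be technical. Expression of the transgene is driven by a retroviral vector in a mixed pool, and its level per cell was not measured.

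The proteasome is the protease that degrades most ubiquitin-tagged proteins in the cytosol and nucleus. Its 20S core is a stack of outer α rings and inner β rings, of which the subunits Psmb5, Psmb6 and Psmb7 carry the standard active sites, and its 19S particle binds, unfolds and feeds in the substrate. Cells exposed to interferon-γ, and many immune cells at rest, replace these active subunits with Psmb8 (β5i, for Psmb5), Psmb9 (β1i, for Psmb6) and Psmb10 (β2i, for Psmb7), and make the PA28 activator from Psme1 and Psme2. The resulting immunoproteasome is known for making peptides that suit MHC class I molecules. In skeletal muscle the proteasome removes sarcomere proteins during atrophy.

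RNA of Psmb8 and Psmb9, 2 of the 3 immunoproteasome catalytic subunits, was present in C/EBPβ myoblasts and at or near 0 in the controls, while the other proteasome genes differed by less. Psmb8 was at least 158-fold higher and Psmb9 was higher by 5.22 on the log2 scale (SE 0.39, n = 2 per group). Psmb10, Psme1 and Psme2 did not pass the test. Of all tested genes 24.9% passed, 14.1% higher and 10.8% lower in C/EBPβ cells. Of the 31 constitutive subunits 5 fell and none rose, and their median log2 fold change was -0.19, beside 0.00055 over all tested genes. At an unadjusted p of 0.05 in edgeR 14 of them were lower and none higher. DESeq2 called 6 lower and none higher, beside 1566 of all 15078 tested genes lower. The share of all genes at an unadjusted p was not computed. Psmd8, a non-ATPase subunit of the 19S particle, had the lowest value, -0.83 (SE 0.10).

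Short promoter stretches show where letters of known response elements occur near some of the proteasome genes. They come from the RefSeq promoter table on GRCm38.p6, which held 42 of the 50 genes, and the 250 bases before the RefSeq start were searched on both strands. The capitals mark the match. The first set holds the letters of the C/EBP element, TTGCNNAA, with C/EBPβ being the factor overexpressed here.
Psma6 (chr12:55384118-55384147, plus strand): tttaaagtccaTTGCTAAAgttctcccaga
Psmb3 (chr11:97703393-97703422, plus strand): aatggggaggaTTCGGCAAgagcgttgacc
Psmf1 (chr2:151741531-151741560, minus strand): agacagaTTGCCTAAattttcccccggcct
These 3 genes are 7.14% of the 42, and 9.56% of all 32851 promoter windows hold the letters. The matches in Psmb3 and Psmf1 lie inside the longer genes as annotated for counting. Of the 3 genes, Psma6 alone passed the test, and the window of Psmb8 does not hold the letters. The window of Psmb8 holds the letters of a gamma-activated site, TTCNNNGAA, an element of the interferon-γ response, which occurs in 7.02% of all windows and in 4.76% of the 42 genes. The match in Psmb8 lies 89 to 97 bases before the RefSeq start and inside the longer Psmb8 gene as the count files annotate it.
Psmb8 (chr17:34198088-34198117, plus strand): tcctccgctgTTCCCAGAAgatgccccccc
Among the 3 standard catalytic subunits, Psmb5 and Psmb6 hold the letters of an antioxidant response element, TGACNNNGC, the kind of element through which NFE2L1 acts on proteasome genes. It occurs in 10.2% of all windows and in 11.9% of the 42 genes.
Psmb5 (chr14:54618023-54618052, minus strand): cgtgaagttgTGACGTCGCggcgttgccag
Psmb6 (chr11:70525327-70525356, plus strand): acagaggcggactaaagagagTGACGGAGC
None of these matches overlapped a match of another element. The windows of Psmb9 and Psmb10 held no match to these 3 elements, to the interferon-stimulated response element (in 2.98% of all windows) or to the NF-κB element (in 1.41%). Psmb3, Psmd4 and Psmd9, 7.14% of the 42 genes, hold the letters of the interferon-stimulated response element. A match describes letters and not binding, and no binding was measured here.

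The libraries held 38656497 and 92027838 counts for C/EBPβ, and 40912955 and 37566321 counts for the empty vector. Cebpb itself, which encodes C/EBPβ, averaged 478 ± 7.00 CPM in C/EBPβ cells and 80.9 ± 5.77 CPM in empty vector cells (SD, n = 2 each). CPM are counts scaled to 1000000 counts of tested genes after TMM scaling. Unless DESeq2 or the authors are named, an adjusted p is from edgeR's quasi-likelihood test with Benjamini-Hochberg adjustment over the 15078 tested genes. With a library left out or another filter, the number of genes tested and adjusted over differs. The threshold was an adjusted p of 0.05. The 6 myoblast markers Myod1, Myf5, Des, Cdh15, Chrna1 and Itga7 summed to 1838 and 2155 CPM in C/EBPβ cells and to 3304 and 3597 CPM in empty vector cells. All 6 were detected in every library, and 5 of them fell while Myf5 rose, beside 10.8% of all tested genes lower and 14.1% higher. Their log2 fold changes ran from -1.42 for Itga7 to 0.60 for Myf5. Bulk RNA does not tell fewer cells expressing a gene from less RNA per cell.

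Psmb8, the β5i subunit with chymotrypsin-like activity, had 290 and 501 counts in C/EBPβ replicates 1 and 2, or 7.60 and 5.45 CPM, and 0 counts in each empty vector library. A count of 0 allows up to 0.0733 and 0.0799 counts per 1000000 of the library total in empty vector replicates 1 and 2, the level of 3 counts, and this limit covers counting error only. Against 3 counts over both empty vector libraries, Psmb8 was at least 158-fold higher in C/EBPβ cells (adjusted p = 3.56e-05). Leaving out empty vector replicate 1 lowered this bound to 75.8-fold, and leaving out empty vector replicate 2 lowered it to 82.55-fold, since fewer counts then stood behind the 0. The groups do not overlap, and the gene passed the test under every alternative tried. With 0 counts in the controls, Psmb8 met each filter only through its C/EBPβ counts.

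Psmb9, the β1i subunit, had 170 and 309 counts in C/EBPβ replicates 1 and 2, or 4.46 and 3.36 CPM, against 6 and 2 counts in empty vector replicates 1 and 2, or 0.146 and 0.0529 CPM. Both C/EBPβ libraries stand far above both empty vector libraries, and C/EBPβ replicate 1 is the higher of its group for Psmb9 as it is for Psmb8. The log2 fold change was 5.22 (SE 0.39, adjusted p = 6.15e-05). Taken as a ratio of summed counts, Psmb9 was 36.0-fold higher (95% counting interval 18.1 to 83.8). With empty vector replicate 1 left out, 2 counts remained in the control, and the ratio was 68.85 (counting interval 18.95 to 570.1) and the log2 fold change 6.13. With empty vector replicate 2 left out, 6 counts remained, and the ratio was 24.99 (counting interval 11.4 to 68.45) and the log2 fold change 4.7.

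Psmb10, the β2i subunit, followed neither of them. It had 8.91 and 9.72 CPM in C/EBPβ cells and 12.4 and 11.3 CPM in empty vector cells, so that it was already expressed in the controls and lower in both C/EBPβ libraries. Its log2 fold change of -0.34 (SE 0.13) did not pass the test (adjusted p = 0.0827). The authors' deposited table gives Psmb10 a log2 fold change of -0.38 with an adjusted p of 0.0396, past the same threshold. In that table Psmb8 and Psmb9 have log2 fold changes of 6.42 and 4.58, with adjusted p of 8.21e-31 and 4.44e-23. The authors' value for Psmb8 is below the lower bound of 7.31 on the log2 scale that the 158-fold corresponds to, and the libraries behind the authors' deposited table are not known.

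The PA28 genes were expressed in every library, and neither passed the test. Psme1, which encodes PA28α, had 43.8 and 45.8 CPM in C/EBPβ cells and 45.9 and 41.7 CPM in empty vector cells, which overlap (log2 fold change 0.03, adjusted p = 0.830). Psme2, which encodes PA28β, had 59.6 and 60.8 CPM in C/EBPβ cells and 54.2 and 47.6 CPM in empty vector cells. Both C/EBPβ libraries are above both controls for Psme2, with a log2 fold change of 0.24 (SE 0.09, adjusted p = 0.0902). The value was 0.34 without empty vector replicate 1 and 0.15 without empty vector replicate 2.

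**Figure D1:**
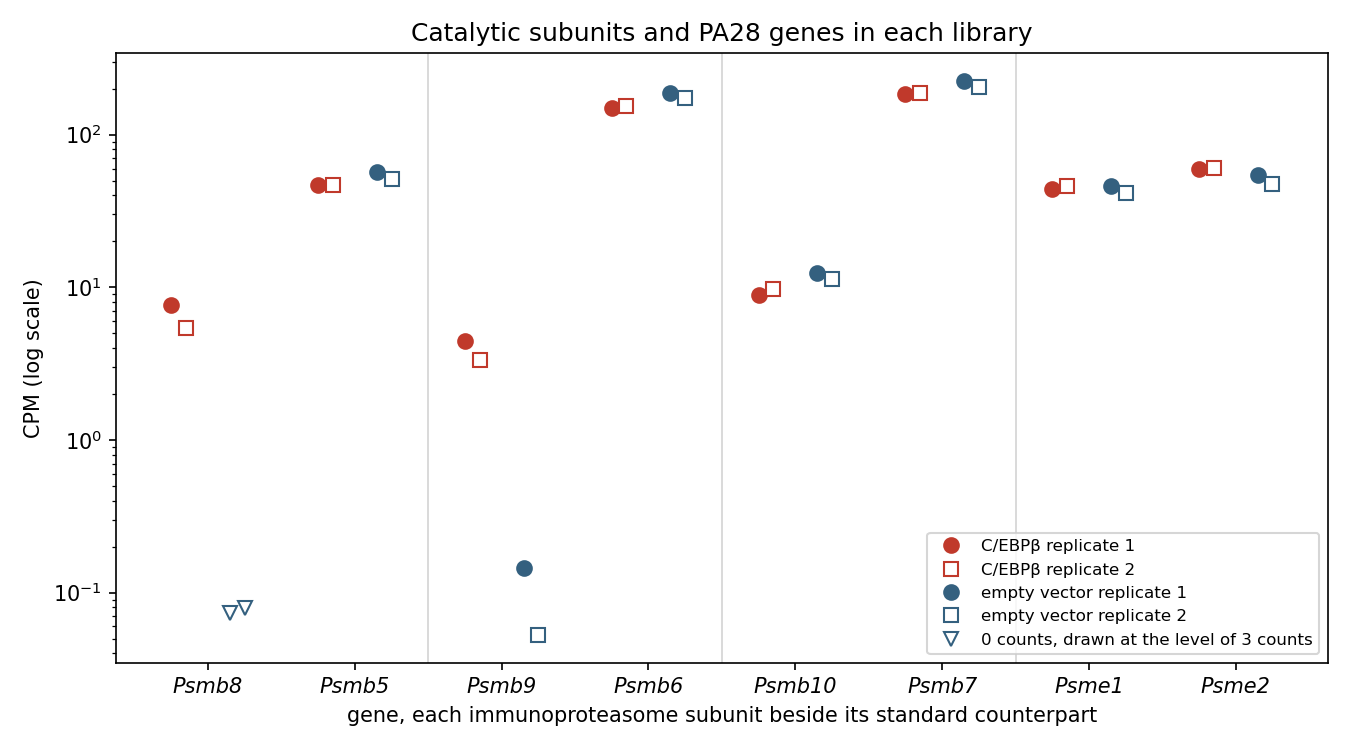
Level of each catalytic β subunit and PA28 gene in every library, in CPM on a log axis, with circles for replicate 1, squares for replicate 2 and triangles for libraries with 0 counts. Psmb8 and Psmb9 are at 3.36 to 7.60 CPM in the C/EBPβ libraries and at most 0.146 CPM in the empty vector libraries, whereas the libraries of the other genes lie close together.

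In RNA averaged over the pool, the standard catalytic subunit had the higher level per kilobase of each pair in all 4 libraries. Which subunits were in assembled proteasomes was not measured. Per kilobase of exon, Psmb5 averaged 53.9 CPM per kb in C/EBPβ cells and 62.1 CPM per kb in empty vector cells, while Psmb8 averaged 2.39 CPM per kb in C/EBPβ cells. Psmb8 thus made up 4.89% and 3.58% of the summed level of Psmb8 and Psmb5 per kilobase in C/EBPβ replicates 1 and 2, and 0% in the empty vector. For Psmb9 beside Psmb6 the shares were 1.495% and 1.10% in C/EBPβ cells and 0.0396% and 0.0155% in empty vector cells. For Psmb10 beside Psmb7 they were 8.88% and 9.39% in C/EBPβ cells and 9.93% and 9.91% in empty vector cells. The lengths are all exons of the gene in the annotation used for counting. With the principal transcript's length the C/EBPβ shares averaged 7.12% for Psmb8 and 4.25% for Psmb10. Principal transcripts were taken from a later GENCODE release, in which that of Psmb5 is longer than the counted exons (899 against 871 bases).

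The shift of each pair was tested over the libraries, with 0.5 added to each count. The log2 ratio of Psmb8 to Psmb5 was higher by 9.19 in C/EBPβ cells, a value that depends on the 0.5 because the controls held 0 counts of Psmb8. That of Psmb9 to Psmb6 was higher by 5.5, and that of Psmb10 to Psmb7 was lower, by -0.13. Each has a two-sided exact permutation p of 0.333, also after adjustment over the 3 pairs, which is the smallest p that 2 against 2 libraries allow. The inducible genes were also tested in edgeR with libraries scaled to the summed counts of the constitutive subunits, an alternative added after the data were seen. Relative to them Psmb9 was higher by 5.42 (adjusted p = 9.69e-05) and Psme2 by 0.43 (adjusted p = 0.0111), Psmb8 passed (adjusted p = 7.29e-05), and Psmb10 (-0.16, adjusted p = 0.374) and Psme1 (0.22, adjusted p = 0.109) did not. This scaling moved the median of all genes by 0.19, and 80.9% of its calls are higher in C/EBPβ cells, against 56.6% with TMM.

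Psmb9 and Psmb8 lie close together in the MHC region of chromosome 17, with the peptide transporter gene Tap1 between them and Tap2 beyond, 34.3 kb from the start of Psmb9 to the end of Tap2. Psmb9 (ENSMUSG00000096727) spans 34181988 to 34187764 on the minus strand of GRCm38 and Psmb8 (ENSMUSG00000024338) 34197721 to 34201454 on the plus strand, both protein-coding. The RefSeq starts of Psmb9 and Tap1 are 226 bases apart and face away from each other, so their 250-base windows share 225 bases. All 12 annotated genes from Brd2 to H2-Ob were examined, a window of 134 kb chosen after the values of Psmb8 and Psmb9 were known. Of these 8 could be tested, and 7 rose, Psmb8 and Psmb9 included, for which the window was drawn, so the count is a description. Psmb8, Psmb9, H2-DMb1 and H2-DMb2 had at most 6 counts in each empty vector library. They met the count filter through the C/EBPβ libraries alone, so the filter itself favoured genes higher in C/EBPβ cells. Of all tested genes 14.1% rose.

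Tap1, a subunit of the transporter that carries peptides into the endoplasmic reticulum, had 19.03 and 13.7 CPM in C/EBPβ cells and 0.924 and 0.925 CPM in empty vector cells (log2 fold change 4.13, SE 0.22, adjusted p = 1.22e-05). Tap2, its partner, had 32.5 and 27.0 CPM in C/EBPβ cells and 5.28 and 4.76 CPM in empty vector cells (2.56, SE 0.14, adjusted p = 1.24e-05). Neither gene's groups overlap, and C/EBPβ replicate 1 is the higher of its group for both. Further along, H2-DMa, a chain of a peptide-loading factor of MHC class II, had 9.33 and 6.11 CPM in C/EBPβ cells and 3.04 and 2.33 CPM in empty vector cells (1.5, adjusted p = 0.00262). H2-DMb1 and H2-DMb2, which encode its partner chain and are near copies of each other, had 4 counts each over both empty vector libraries. The ratios were 23.1 (95% counting interval 8.85 to 85.9) for H2-DMb1 and 11.3 (4.22 to 42.4) for H2-DMb2, and the counter leaves out reads that map to both copies by default. Without empty vector replicate 2 these ratios were 48.2 (8.53 to 1916) and 23.5 (4.09 to 939.6), with 1 control count each. Without empty vector replicate 1 they were 14.8 and 7.19, and without C/EBPβ replicate 2 the ratio of H2-DMb2 was 17.8. Brd2, a bromodomain protein, was the tested gene that did not pass (0.13, adjusted p = 0.350), and H2-Ob had 0 counts in all libraries. Psmb9 overlaps Tap1 on the opposite strand, and Psmb8 overlaps the antisense gene Gm20496, which had 2 counts in each C/EBPβ library. The counting was stranded, which keeps such pairs apart.

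**Figure D2:**
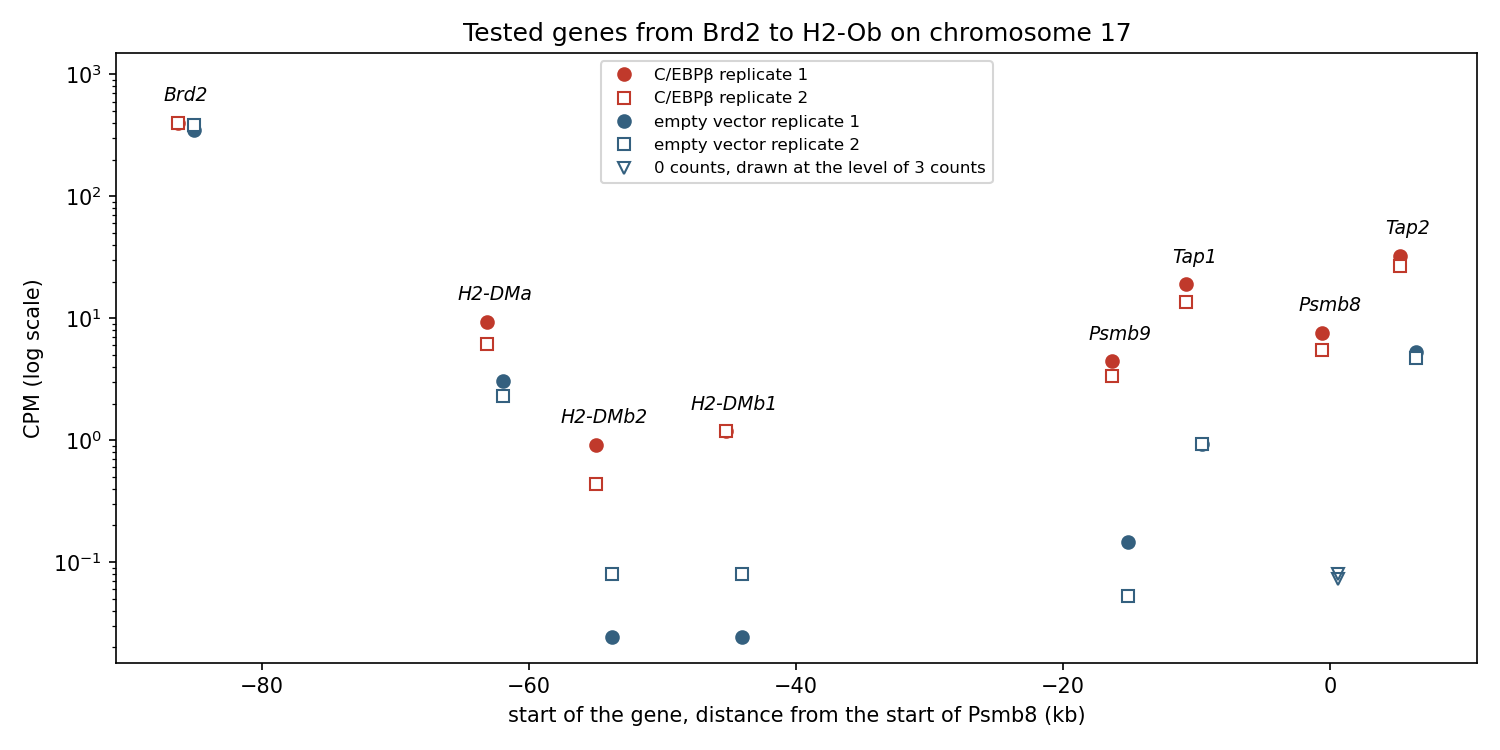
Levels of the 8 tested genes from Brd2 to H2-Ob, in CPM on a log axis, against the distance of each gene's start from the start of Psmb8 in kb, with 1 point per library and triangles for 0 counts. Psmb9, Tap1, Psmb8 and Tap2 stand higher in both C/EBPβ libraries than in both empty vector libraries, while the points of Brd2 nearly coincide.

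Most constitutive subunits had slightly lower values in C/EBPβ cells, and 5 of the 31 passed the test. The 31 genes summed to 5693 and 5968 CPM in C/EBPβ cells and to 6830 and 6453 CPM in empty vector cells, or 0.562% and 0.596% against 0.687% and 0.650% of all counts. Of the 31, 30 had a log2 fold change below 0, and in 27 both C/EBPβ libraries were below both empty vector libraries, an arrangement seen in 32.9% of all tested genes. The 5 that passed as lower stand beside 10.8% of all tested genes called lower, and the 26 that did not pass had SE of 0.08 to 0.09 on the log2 scale. Psmd8 alone passed without C/EBPβ replicate 1, where 6.2% of all genes were lower, and also with libraries scaled to the summed subunits, where 5.47% were lower. The authors' deposited table calls 11 of the 31 lower and none higher, with a median log2 fold change of -0.23, and calls 13.6% of its genes lower.

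In the α ring, which gates entry to the core, 3 of 7 members fell, beside 10.8% of all tested genes, and the median was -0.21. Psma5 had 97.8 and 103.5 CPM in C/EBPβ cells and 135 and 124 CPM in empty vector cells (log2 fold change -0.36, adjusted p = 0.0148). Psma1 had 116 and 129 CPM in C/EBPβ cells and 154.5 and 155 CPM in empty vector cells (-0.34, adjusted p = 0.0232). Psma6 had 144 and 152 CPM in C/EBPβ cells and 188 and 172 CPM in empty vector cells (-0.28, adjusted p = 0.0467). The groups do not overlap for any of the 3, with C/EBPβ below, an arrangement seen in 32.9% of all tested genes. All 3 calls were lost without C/EBPβ replicate 1, where 6.2% of all genes were lower (adjusted p 0.132 for Psma5, 0.283 for Psma1 and 0.335 for Psma6). The Psma6 call was also lost without C/EBPβ replicate 2 (0.111) and without empty vector replicate 1 (0.114), and the Psma1 call without empty vector replicate 2 (0.0512). Psma4 was the constitutive gene with the highest value (0.08, adjusted p = 0.552), at 109 and 110 CPM in C/EBPβ cells and 110.5 and 95.5 CPM in empty vector cells, and its sign turned without empty vector replicate 2 (-0.02).

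None of the 7 standard β subunits passed in edgeR, though 3 were lower at an unadjusted p of 0.05 and DESeq2 called 1, Psmb6. DESeq2 called 1566 of all 15078 tested genes lower, and the share of all genes at that unadjusted p was not computed. The active subunits Psmb5, Psmb6 and Psmb7 had log2 fold changes of -0.21, -0.25 and -0.22 (adjusted p = 0.132, 0.0568 and 0.106). Psmb6, the β1 subunit that Psmb9 replaces, had 150 and 154 CPM in C/EBPβ cells and 188 and 175 CPM in empty vector cells. It passed with library totals only (adjusted p = 0.0476), in DESeq2 (0.0371) and without empty vector replicate 2 (0.0390). Psmb5 had 47.05 and 46.8 CPM in C/EBPβ cells and 57.2 and 51.1 CPM in empty vector cells, and Psmb7 183.6 and 188 CPM in C/EBPβ cells and 226 and 206 CPM in empty vector cells. All 3 were lower in both C/EBPβ libraries than in both empty vector libraries, an arrangement seen in 32.9% of all tested genes. The structural subunits Psmb1 to Psmb4 had values between -0.17 and -0.10.

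In the 19S particle 2 of 17 subunits fell, a share near the 10.8% of all tested genes that were lower. Psmd8 had 169 and 182.5 CPM in C/EBPβ cells and 333 and 294 CPM in empty vector cells, and no library of one group comes near the other (log2 fold change -0.83, SE 0.10, adjusted p = 4.97e-04). It stayed past the threshold under every alternative tried, from -0.64 relative to the summed subunits (adjusted p = 0.00166) to -0.92 without empty vector replicate 2. Psmd8 (ENSMUSG00000030591) lies on chromosome 7 from 29174188 to 29180701 on the minus strand of GRCm38, and no other annotated gene overlaps it. Psmd7, the partner of the deubiquitinase subunit Psmd14, had 172 and 179 CPM in C/EBPβ cells and 229 and 220 CPM in empty vector cells (-0.35, adjusted p = 0.0149), a call lost without C/EBPβ replicate 1 (-0.33, adjusted p = 0.135). The 6 ATPases, Psmc1 to Psmc6, which form the unfolding ring, had values between -0.23 and -0.08, and none passed in edgeR or DESeq2. At an unadjusted p of 0.05 in edgeR 2 were lower, and the share of all tested genes at that p was not computed. The other 9 non-ATPase subunits had values between -0.21 and -0.07.

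**Figure D3:**
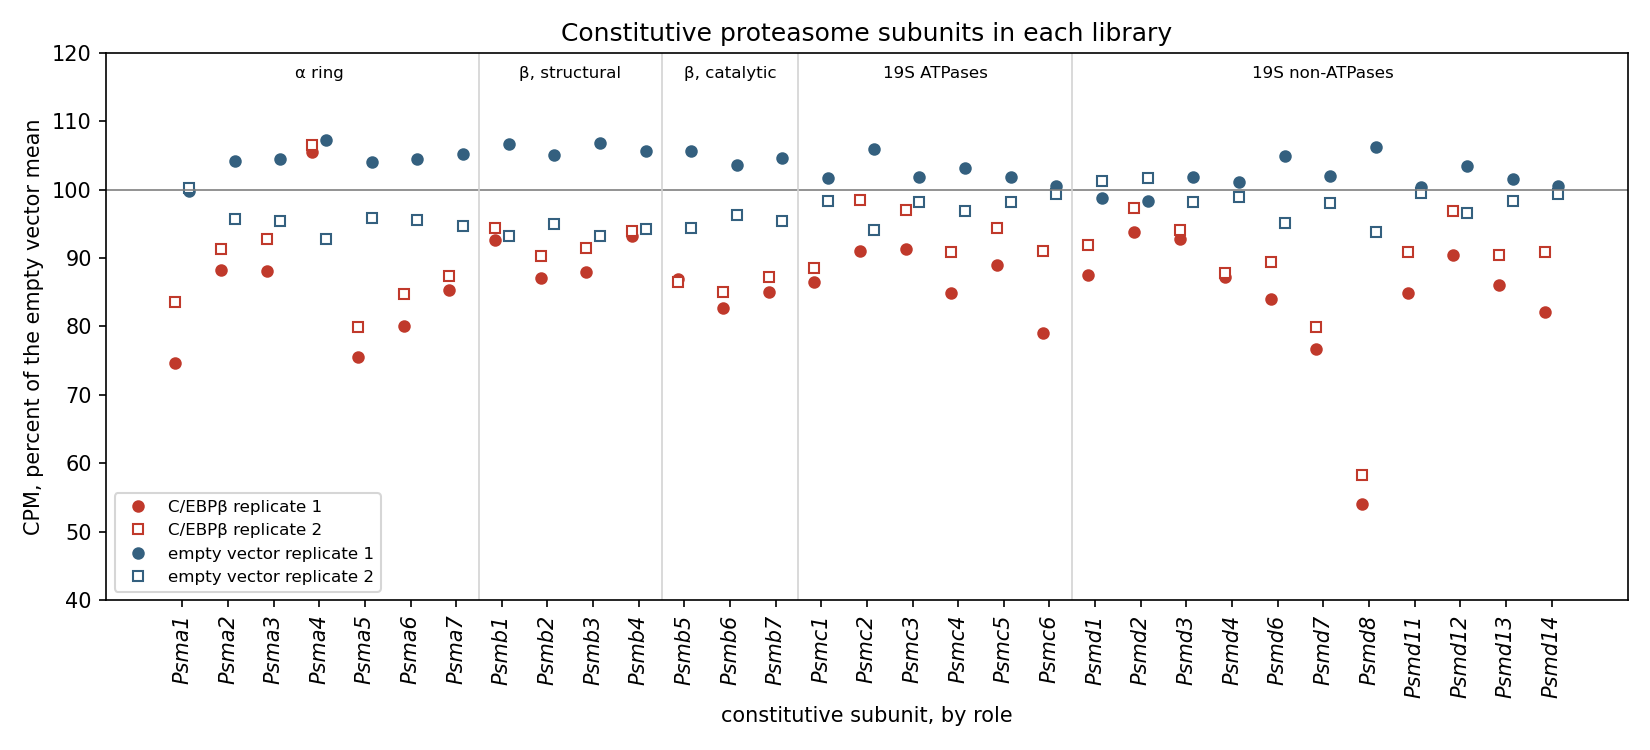
CPM of each of the 31 constitutive subunits in every library as a percentage of that gene's empty vector mean, grouped by role, with filled circles for replicate 1 and open squares for replicate 2. The C/EBPβ libraries have medians of 86.9% and 90.9% and the empty vector libraries of 104% and 96.4%, and Psmd8 stands apart at 54.1% and 58.2% in the C/EBPβ libraries.

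The subunits varied together between libraries of the same group. Empty vector replicate 1 was above replicate 2 for 28 of the 31, and C/EBPβ replicate 2 was above replicate 1 for 30. The difference between groups was smaller without C/EBPβ replicate 1 and without empty vector replicate 1, with a median of -0.14 in each case, and -0.20 and -0.22 without C/EBPβ replicate 2 and empty vector replicate 2. Per kilobase of exon the mean levels ran from 24.9 to 201 CPM per kb in C/EBPβ cells, with a median of 63.4, and from 28.3 to 215 CPM per kb in empty vector cells, with a median of 76.3. With these lengths, all exons of a gene, Psmb1 had the highest and Psmd11 the lowest level per kb in both groups, an order that depends on the length used. Genes with processed pseudogenes can be under-counted, because reads mapping to several places are left out by the counter's default. The same holds for reads shared with an overlapping gene of the same strand, which 9 of the 50 genes have, Psmb5 and Psmb7 among them.

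Among the other proteasome genes 1 of the 10 activators, inhibitors and assembly chaperones passed, as lower, a share near the 10.8% of all tested genes that were lower. Psme4, which encodes the activator PA200, had 129.5 and 130.3 CPM in C/EBPβ cells and 164 and 187 CPM in empty vector cells, which do not overlap. Its log2 fold change was -0.43 (SE 0.09) with an adjusted p of 0.00960. Its call was lost relative to the summed subunits (-0.25, adjusted p = 0.130). Psme3, the nuclear activator PA28γ, had 149.6 and 148 CPM in C/EBPβ cells and 170.3 and 164 CPM in empty vector cells (-0.17, adjusted p = 0.159). Psmf1, which encodes the inhibitor PI31, had 42.1 and 43.0 CPM in C/EBPβ cells and 43.5 and 45.2 CPM in empty vector cells (-0.06, adjusted p = 0.647). The 7 chaperones that help to build the core or the 19S base (Psmg1 to Psmg4, Psmd5, Psmd9 and Psmd10) had values between -0.21 and 0.04, and none passed in edgeR, at an unadjusted p of 0.05 or in DESeq2.

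The tissue-restricted subunits were not detected beyond 1 count. Psma8, the α subunit of the testis, had 0 counts in all 4 libraries, which allows up to 0.0776 and 0.0326 counts per 1000000 of the total in C/EBPβ cells and 0.0733 and 0.0799 in empty vector cells, and Psmb11, the β5t subunit of the thymus, had 1 count in empty vector replicate 1 and none elsewhere. Psmc3ip and Psme2b match the symbol rule without being subunits of the standard particle. Psmc3ip, a factor of meiotic recombination, was at -0.17 on the log2 scale (adjusted p = 0.295), and Psme2b, a gene related to Psme2, had 34 and 82 counts in C/EBPβ cells and 29 and 42 counts in empty vector cells (-0.02, adjusted p = 0.972).

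**Figure D4:**
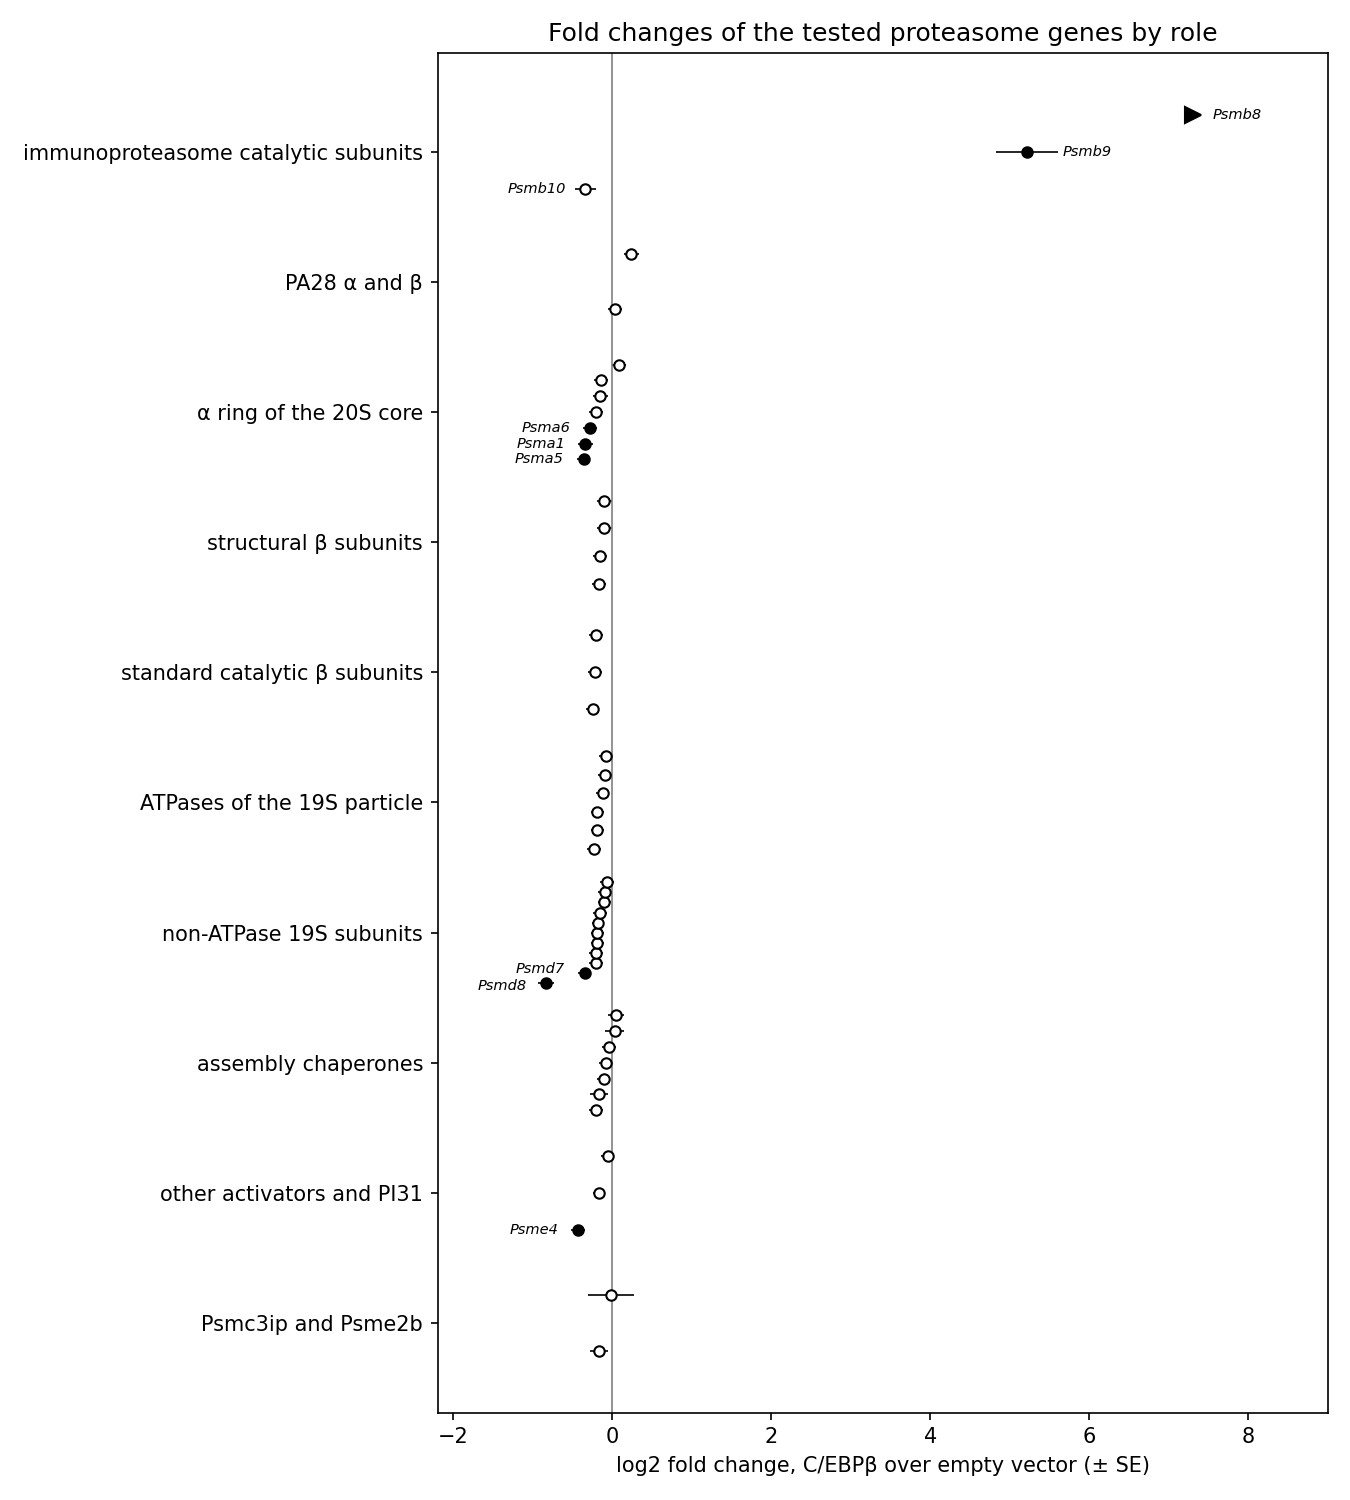
Log2 fold change of C/EBPβ over empty vector for the 48 tested genes by role, with SE as bars, filled points for genes past an adjusted p of 0.05 and an arrowhead at 7.31 for the lower bound of Psmb8. Psmb8 and Psmb9 lie far to the right, and the 5 fallen constitutive subunits and Psme4 lie between -0.83 and -0.28.

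Genes that work with the proteasome were examined as a list. Of 31 ubiquitin-proteasome partners counted, 30 had enough counts, and 5 fell while 1 rose, beside 10.8% of all tested genes lower and 14.1% higher. The median over the list was -0.09 on the log2 scale. The falls were those of Rad23b, a shuttle that brings ubiquitinated proteins to the 19S particle (-0.49, adjusted p = 0.00569), Ube3c, a ubiquitin ligase bound to the proteasome (-0.34, adjusted p = 0.0140), Nfe2l2, the antioxidant factor NRF2 (-0.44, adjusted p = 0.0142), Uchl5, a deubiquitinase of the 19S particle (-0.35, adjusted p = 0.0196), and Ubqln4, another shuttle (-0.28, adjusted p = 0.0310). Without C/EBPβ replicate 1, Rad23b alone of the 6 passed. Among the falls, those of Ube3c and Ubqln4 were also lost without C/EBPβ replicate 2. The call of Nfe2l2 was also lost without empty vector replicate 2, and that of Uchl5 without empty vector replicate 1. Nfe2l1, the factor that restores proteasome genes when the protease is blocked, averaged 370 ± 1.86 CPM in C/EBPβ cells and 355 ± 21.1 CPM in empty vector cells (0.06, adjusted p = 0.666). Pomp, the chaperone of core maturation, averaged 136 ± 0.270 CPM in C/EBPβ cells and 127.5 ± 13.8 CPM in empty vector cells (SD, n = 2 each; 0.10, adjusted p = 0.50).

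Genes of MHC class I peptide supply and their regulators rose in 12 of the 21 tested members of 22, with a median of 0.38, and none fell (also at an unadjusted p of 0.05 in edgeR and in DESeq2), beside 14.1% of all tested genes higher and 10.8% lower. Nlrc5, the transactivator of MHC class I genes, which also acts on Psmb9 and Tap1, averaged 41.6 ± 7.49 CPM in C/EBPβ cells and 4.20 ± 1.09 CPM in empty vector cells (SD, n = 2 each; log2 fold change 3.31, adjusted p = 1.86e-05). B2m, the light chain of MHC class I, rose by 1.0 (adjusted p = 5.12e-04). Irf1, which carries the interferon-γ response to immunoproteasome genes, rose by 0.40 (adjusted p = 0.0107). Irf1 no longer passed when C/EBPβ replicate 2 was left out (0.37, adjusted p = 0.0632). Immunoproteasomes are also made by leukocytes at rest, and markers of these cells were counted. Of 10 leukocyte markers, Tyrobp, Itgam, Cd3e and Adgre1 had 0 counts in all 4 libraries, and Ptprc had 0 and 1 counts in C/EBPβ cells and 2 and 2 in empty vector cells. The 10 summed to 15.8 and 13.1 CPM in C/EBPβ cells and to 6.10 and 5.31 CPM in empty vector cells, of which Lyz2 had 286 and 448 counts in C/EBPβ cells and 6 and 2 in empty vector cells. Of the 4 that could be tested, Lyz2, Csf1r and Cd74 rose and Cd68 did not pass (0.33, adjusted p = 0.138). The part of such cells in the rise of Psmb8 and Psmb9 was not tested.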

How the data were processed

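Messenger RNA of 4 stranded libraries was counted per gene by the authors. Per the file headers, the deposited values are whole-number counts of read pairs, made with featureCounts 1.5.1 against GENCODE M12 with the reverse-strand setting, and HISAT2 2.0.4, featureCounts 1.4.6, DESeq2 and GRCm38 stand in the submitters' processing notes. Headers and notes thus name different featureCounts versions. The authors' deposited table of a comparison holds, per its column names, base means (a signal), log2 fold changes and their standard errors, a test score, and a raw and an adjusted p-value. Its base mean was within 1% of that recomputed from these 4 libraries for 3.03% of genes, so how the table was made from which libraries is not known, and its values are quoted only as the authors'.

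Counts were analysed with edgeR 4.0.16 in R 4.3.3 (filterByExpr at its defaults, minimum count 10 and minimum total 15; TMM; quasi-likelihood test; Benjamini-Hochberg over 15078 genes; calls at 0.05), after a check on simulated data. Symbols came from the deposited table or, failing that, from the reference gene names. Alternatives used DESeq2 1.42.0, other scalings, other filters, a replicate block and each library left out. Per-kilobase levels used the exon lengths in the count files. Bounds and counting intervals used library totals. Named genes were the inducible and standard catalytic subunits, PA28, the other activators and PI31, every called member, the extremes, untested members, Cebpb, and from each pathway list up to 4 called genes per direction plus Nfe2l1, Pomp, Nlrc5, Irf1 and Tap1, with some genes of the lists not reported here; the genes around Psmb8, Ubqln4 and single leukocyte markers were added after their values were seen. Members and lists were chosen with earlier results of these data known.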

Additional observations from a re-analysis of the deposited data

How the results depend on the processing

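Psmb8, Psmb9 and Psmd8 kept their direction and their call under every alternative in which they were tested. Psmb8 and Psmb9 met the count filter through their C/EBPβ libraries alone. Psmb9 was not tested under the filter of 5 CPM in 2 libraries, which removed it and left 1 call among the 5 inducible genes. The count over all genes was 3759, and 2493 to 3462 with a library left out, the lowest without C/EBPβ replicate 1. Of the constitutive subunits 1 to 5 passed with a library left out, and 1 passed when libraries were scaled to their sum, which by construction removes their common shift. That scaling, chosen after seeing the data like the principal transcript lengths, left 0 calls among activators, inhibitors and chaperones, where edgeR with TMM called 1. Of the ubiquitin-proteasome partners 1 to 6 passed with a library left out, and of the MHC class I list 9 to 11, against 12 with all libraries. Same-numbered libraries deviated together weakly (r = 0.147 across 15078 genes, which are not independent replicates), and the labels give the numbers no meaning. With the replicate block 4536 genes passed in all, 5 constitutive subunits, 2 inducible genes, 1 activator, 6 partners and 14 genes of the MHC class I list. Over 31 named genes and their alternatives, 309 results kept their side of the threshold, 26 lost a call, 5 gained one and none of the called values reversed. Psmb8 rests on 791 counts against 0, so the size of its rise is limited by depth. Causes of lost calls were not tested.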
